A study of Mus musculus with 10 samples.

Results

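Fibroblasts grown with wild-type group 2 innate lymphoid cells (ILC2s) were compared with fibroblasts grown alone. These are 2 of the 3 groups of a mouse coculture experiment on the pancreas, and 7 of its 10 RNA-seq libraries: 4 of C57B6 fibroblasts in monoculture and 3 of C57B6 fibroblasts cocultured with WT ILC2s. The libraries were chosen by their labels alone, and all genes with enough counts were described. The third group, 3 cocultures with IL13KO ILC2s, was not part of the comparison. Its libraries entered the gene filter, the scaling, the estimate of the spread between libraries and the trend removal described below. Per the study's design, the fibroblasts that went into culture had been sorted as live cells with podoplanin and PDGFRA on their surface and without CD45, EPCAM or CD31, and the ILC2s as KLRG1+ cells with CD45 and without CD3, B220 and lineage markers. The design text gives CD45+, Pdpn+, Pdgfra+ as the gate for recovering fibroblasts after coculture. Ages, the length of culture, the ratio of the cells and the number of mice are not given in the sources used here, and the labels do not say whether the libraries of a group came from separate cultures or animals, so p-values measure the spread between libraries, which may be technical. The coculture libraries carry the numbers 1, 3 and 4 of the count table, which could not be matched one by one to the sample titles.

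Fibroblasts build the connective tissue of an organ: they secrete collagens and other matrix proteins, shape that matrix with proteases and crosslinking enzymes, and signal to immune cells through chemokines and cytokine receptors. ILC2s are tissue-resident lymphocytes without rearranged antigen receptors, known for secreting IL-5 and IL-13 and for carrying the IL-33 receptor ST2. A secretory cell that makes more protein for export draws on tRNA synthetases, on the coats of vesicles that shuttle between endoplasmic reticulum and Golgi, and on chaperones, while ribosomes and the mitochondrial respiratory chain are built from large sets of small proteins whose genes tend to be expressed together.

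Total counts ran from 10710410 to 14366199 in the monocultures and from 18801744 to 22087459 in the cocultures, so the cocultures were sequenced more deeply. In a principal component analysis of the 7 libraries the first component held 76.0% of the variance and separated both groups, and the second held 8.01%. Monoculture 3 stood apart from the other monocultures in 2 respects. It held 644 reads of Upk1b and 498 of Upk3b, genes of mesothelium, against at most 87 and 36 in another monoculture. Its counts were also the richest in GC among the monocultures, as given below. Transcripts of the ILC2 cytokines were absent from the monocultures and low in the cocultures: Il13 had 0 reads in each monoculture and 1.35, 6.15 and 6.52 CPM in cocultures 1, 3 and 4, and Il5 had 0 reads and 3.59, 13.6 and 19.99 CPM. CPM here are counts per 1000000 counts after TMM normalisation. Both markers of the fibroblast sort were present in every library: Pdgfra had 371, 373, 378 and 367 CPM in the monocultures and 747, 557 and 596 CPM in the cocultures, and Pdpn, the gene of podoplanin, had 239.9, 298, 259 and 238 CPM in the monocultures and 293, 377 and 313 CPM in the cocultures, with overlapping groups. Pdgfra differed by 0.77, but by 0.09 once the trend described below was removed. Ptprc, which encodes CD45, had 0 reads in every monoculture and 6, 3 and 9 reads in the cocultures, although the written gate after coculture is CD45+.

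Of 16344 genes tested, 10212 (62.5%) differed between the groups by edgeR's quasi-likelihood test at a Benjamini-Hochberg adjusted p below 0.05. In the cocultures 5355 (32.8%) were higher and 4857 (29.7%) lower, and for 9959 genes (60.9%) the values of both groups did not overlap. The median log2 fold change of all genes was 0.02. Because the fold changes moved with the base composition of the genes, each was also computed after a smooth trend of the counts with GC content and exon length had been removed from each library, here called trend removed. That fit tested 16313 genes and called 9655 (59.2%), 4288 higher (26.3%) and 5367 lower (32.9%), and it moved the median of all genes to -0.10, a shift of -0.12. With and without the trend, 7780 genes (47.7%) were called in the same direction and 174 (1.07%) in opposite directions. With the length trend alone removed, 4222 genes were higher and 6211 lower. Below, "rose", "fell" and "went from" are used for genes that passed the test with the counts as they are, and a difference is a log2 fold change of coculture minus monoculture with its standard error (SE). Where 5 or fewer members of a family moved one way as counted, most are named, chosen after their values were seen. Levels with ± are the mean and SD of the monocultures (n = 4) or the cocultures (n = 3), and values listed by library follow monocultures 1, 2, 3 and 4 and cocultures 1, 3 and 4. In bulk RNA, fewer cells of a kind and less RNA per cell cannot be told apart.

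The rises ranked 11 to 25 by fold included 4 membrane receptors, Il1rl1, Il13ra2, S1pr3 and Ptafr, a water channel and several enzymes. Smpd3, a neutral sphingomyelinase that releases ceramide, had 1.098, 1.18, 0.830 and 0.984 CPM in the monocultures and 312, 204 and 131 CPM in the cocultures. Smpd3 differed by 7.70 (SE 0.44, adjusted p = 3.04e-08). Il1rl1, which encodes the receptor for IL-33, had 7.35, 6.67, 4.98 and 8.58 CPM in the monocultures and 1267, 1445 and 1184 CPM in the cocultures. Il1rl1 differed by 7.55 (SE 0.19, adjusted p = 6.24e-11). Every coculture lay far above every monoculture for both genes, though groups without overlap were a condition of their choice. Il13ra2, the decoy receptor of IL-13, had 7.26, 4.22, 3.23 and 3.02 CPM in the monocultures and 398, 490.2 and 499 CPM in the cocultures. Il13ra2 differed by 6.71 (SE 0.24, adjusted p = 1.04e-09). S1pr3, a receptor for sphingosine 1-phosphate, had 10.8, 24.4, 24.3 and 21.8 CPM in the monocultures and 1631, 1268 and 1257 CPM in the cocultures. S1pr3 differed by 6.09 (SE 0.24, adjusted p = 2.54e-09). Monoculture 1 was the lowest library for S1pr3. Aqp1, a water channel, had reads in monoculture 4 alone among the monocultures, at 0.914 CPM, and stood at 46.4 ± 3.89 CPM in the cocultures. Tmem108, a transmembrane protein, was at 0.571 ± 1.095 CPM in the monocultures, nearly all of it from monoculture 3, and at 72.8 ± 6.92 CPM in the cocultures.

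The other rises of this group started from 7 to 141 reads summed over the monocultures, so their fold changes rest on few reads on that side while their coculture levels do not. Ptafr, the receptor for platelet-activating factor, reached 34.6 ± 3.29 CPM, and Nt5e, the ectonucleotidase CD73 that makes adenosine, 15.9 ± 2.99 CPM. Serpinb2, an inhibitor of plasminogen activators, reached 29.7 ± 8.83 CPM, and Adamts14, a procollagen N-propeptidase, 32.7 ± 6.59 CPM. Aif1l, an actin-binding protein, had 1.77, 2.22, 4.61 and 2.81 CPM in the monocultures and 271, 275 and 242 CPM in the cocultures. Mybl2, a transcription factor of cycling cells, and Iqgap3, a scaffold of the cell cortex, reached 11.7 ± 2.71 CPM and 16.8 ± 7.01 CPM. Ddx4, an RNA helicase known from germ cells, reached 31.9 ± 11.96 CPM from 0.229 ± 0.403 CPM. Atg9a, a lipid scramblase of autophagosome formation, was at 28.8 ± 11.96 CPM, and 32.6% of its exon bases are shared with another gene, so its reads may be divided. The same holds, with shared parts of 23.1% to 83.7%, for P2ry1, Bak1, Mrpl24, Gabarapl1, Mt2 and Sept5 among the genes described below. Coculture 1 was the highest and coculture 4 the lowest for Smpd3, Iqgap3 and Atg9a, while Ddx4 and Serpinb2 were lowest in coculture 1.

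**Figure D1:**
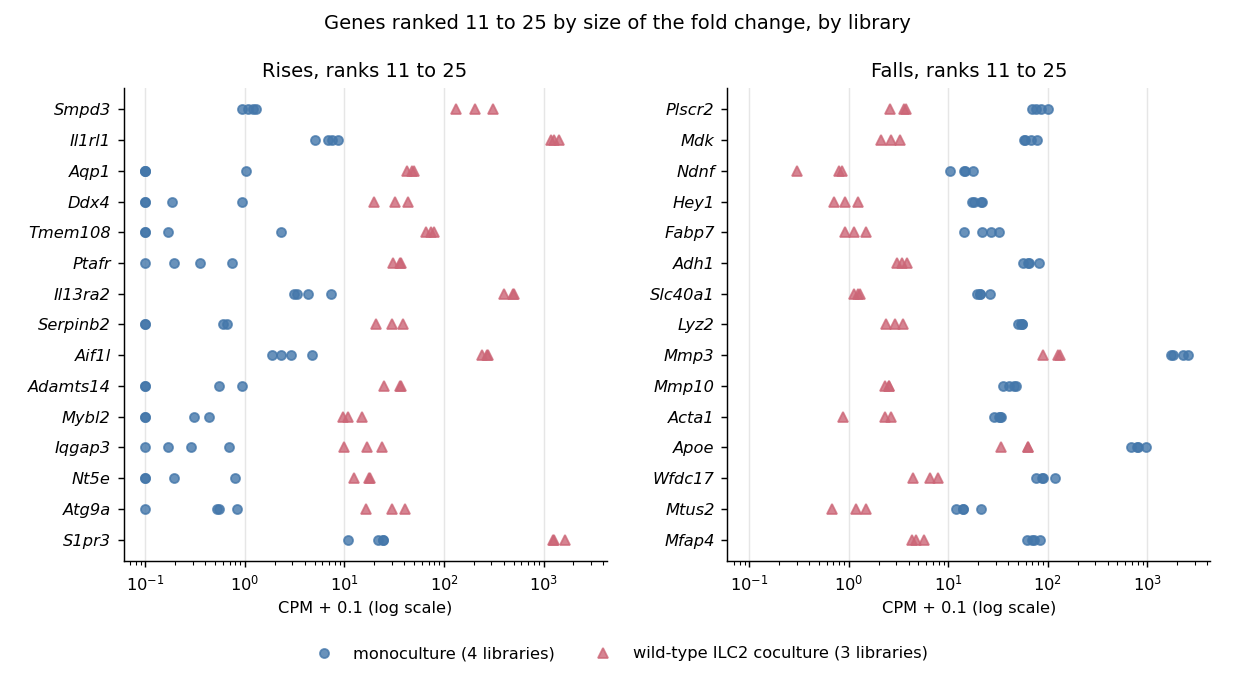
CPM plus 0.1, on a log axis, in each of the 4 monocultures (circles) and 3 wild-type cocultures (triangles) for the genes ranked 11 to 25 by the size of their rise (left) or fall (right). Groups do not overlap for any of them, which the choice of genes required, and Smpd3 spreads from 131 to 312 CPM between cocultures.

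Genes with the largest falls after the first 10 included matrix proteases, lipid carriers and secreted factors. Mmp3, stromelysin 1, had 2585, 2272, 1716 and 1802 CPM in the monocultures and 89.8, 133 and 125 CPM in the cocultures. Mmp3 differed by -4.17 (SE 0.20, adjusted p = 8.49e-09). Its relative Mmp10 had 45.4, 47.8, 35.1 and 41.1 CPM in the monocultures and 2.20, 2.46 and 2.43 CPM in the cocultures. Apoe, the apolipoprotein that carries cholesterol, had 961, 689, 810.4 and 793 CPM in the monocultures and 33.5, 63.2 and 62.8 CPM in the cocultures. Apoe differed by -3.94 (SE 0.22, adjusted p = 2.97e-08). Plscr2, a phospholipid scramblase, had 99.9, 85.5, 69.4 and 75.9 CPM in the monocultures and 2.51, 3.48 and 3.66 CPM in the cocultures. Plscr2 differed by -4.69 (SE 0.22, adjusted p = 8.40e-09). Mdk, the heparin-binding growth factor midkine, fell from 65.7 ± 9.25 CPM to 2.59 ± 0.581 CPM, and Ndnf, a secreted neurotrophic factor, from 14.2 ± 2.92 CPM to 0.556 ± 0.306 CPM. Hey1, a repressor induced by Notch, was at 19.5 ± 2.16 CPM and 0.851 ± 0.261 CPM. Slc40a1, ferroportin, the only known iron exporter of the cell, had 20.5, 26.4, 19.5 and 20.7 CPM in the monocultures and 1.21, 1.13 and 1.02 CPM in the cocultures. Each monoculture lay above each coculture for these genes, which their choice required.

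The same set held Fabp7, a fatty acid binding protein, at 23.8 ± 7.66 CPM in monoculture and 1.07 ± 0.295 CPM in coculture, and Adh1, an alcohol dehydrogenase that also oxidises retinol, at 66.5 ± 10.5 CPM and 3.36 ± 0.415 CPM. Lyz2, lysozyme, best known from macrophages, had 54.7, 50.5, 54.6 and 53.8 CPM in the monocultures and 2.29, 2.82 and 3.45 CPM in the cocultures. Acta1, the actin of skeletal muscle, was at 32.2 ± 2.13 CPM and 1.83 ± 0.937 CPM. Wfdc17 was at 93.5 ± 18.2 CPM and 6.17 ± 1.70 CPM, Mtus2 at 15.3 ± 4.12 CPM and 1.02 ± 0.412 CPM, and Mfap4, a microfibril-associated glycoprotein, at 72.2 ± 9.004 CPM and 4.81 ± 0.748 CPM. Differences of the 15 falls ran from -4.69 for Plscr2 to -3.91 for Mfap4. With the trend removed all 30 genes of both sets passed in the same direction, Smpd3 at 6.38 and Mmp3 at -3.86.

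The 10 largest rises in CPM, rather than in folds, included chemokines, collagen chains, chaperones and a crosslinking enzyme. Ccl11, eotaxin, had 116, 111, 86.8 and 86.6 CPM in the monocultures and 5370.2, 5577 and 6866 CPM in the cocultures. Ccl11 differed by 5.89 (SE 0.15, adjusted p = 6.24e-11). Ccl7 and Ccl2, which attract monocytes, went from 750.0 ± 144 to 3738 ± 446 CPM and from 365 ± 51.8 to 2609.5 ± 142 CPM. Lox, lysyl oxidase, which crosslinks collagen and elastin, had 706, 711, 786 and 754 CPM in the monocultures and 4739, 4375 and 4920.2 CPM in the cocultures. Lox differed by 2.66 (SE 0.08, adjusted p = 2.90e-10). Col6a1, a collagen VI chain, rose from 86.1 ± 27.1 to 2674 ± 139.9 CPM. Col1a1, the main chain of collagen I, had 951, 817, 1682 and 829.6 CPM in the monocultures and 8633, 7276 and 4361 CPM in the cocultures. Col1a1 differed by 2.66 (SE 0.26, adjusted p = 2.46e-06). The Col1a1 exons hold 57.7% GC, and with the trend removed its difference was 1.12.

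Serpinh1, the collagen chaperone HSP47, had 5203, 8703, 8134 and 8567 CPM in the monocultures and 11750.2, 13413 and 10509 CPM in the cocultures. Serpinh1 differed by 0.64 (SE 0.15, adjusted p = 0.00266). With the trend removed it no longer passed, at 0.10, and with the GC trend alone removed its sign turned, at -0.12. Hspa5, the chaperone BiP of the endoplasmic reticulum, had 2782, 2650.0, 2222 and 2546 CPM in the monocultures and 5062, 6499 and 6031 CPM in the cocultures, and kept its size with the trend removed (1.28 against 1.20). Eno1, a glycolytic enolase, went from 1288 ± 182 to 3466 ± 330.1 CPM with a difference of 1.43 that shrank to 0.38. Actb, cytoplasmic actin, rose by 0.53 and did not pass with the GC trend alone removed, at 0.12. Ccl11 and Lox, in contrast, had slightly larger differences with the trend removed, 6.24 and 2.82.

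The 10 largest falls in CPM included genes of the matrix, ferritin, ubiquitin and the lysosome. Sparc, a collagen-binding matrix protein also called osteonectin, had 13166, 12538, 12227 and 12641 CPM in the monocultures and 3149.8, 3992 and 5544 CPM in the cocultures. Sparc differed by -1.58 (SE 0.16, adjusted p = 2.61e-06). Dcn, the small proteoglycan decorin, had 3551, 2171, 2146 and 2259 CPM in the monocultures and 298, 425 and 386 CPM in the cocultures. Dcn differed by -2.78 (SE 0.20, adjusted p = 1.96e-07). Serpinf1, the antiangiogenic factor PEDF, fell from 3839 ± 236 to 1104 ± 319 CPM, and Ctsb, the lysosomal protease cathepsin B, from 3813 ± 73.6 to 1459 ± 135 CPM. Itm2a, a membrane protein, went from 6126 ± 1278 to 2161 ± 312 CPM. Ubb, a polyubiquitin gene, and Eef1a1, the elongation factor that brings tRNA to the ribosome, fell by less, with differences of -0.83 and -0.94. Ftl1, the light chain of ferritin, fell with a difference of -1.097, but 34.6% of its exon bases overlap another gene. Malat1, a nuclear noncoding RNA, was at 2532 ± 711 CPM in monoculture and 417 ± 93.1 CPM in coculture. Col1a2, the other chain of collagen I, had 1476, 1538, 2272 and 1736 CPM in the monocultures and 2011, 1993 and 2049 CPM in the cocultures. These groups overlapped and Col1a2 did not pass, at 0.20, unlike Col1a1.

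Gene families were described by 75 lists with 2551 tested genes in all. The median of 51 families lay above that of all genes and of 24 below. After the trend was removed, 37 stayed above and 23 below, 14 went from above to below, and 1 from below to above. Brackets that begin with "trend removed" give the calls after the trend was removed and, where 2 medians follow, the median difference as counted and then after removal. The genes called in a bracket need not be those called as counted. The shares over all genes to read the families against are the 32.8% higher and 29.7% lower given above.

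**Figure D2:**
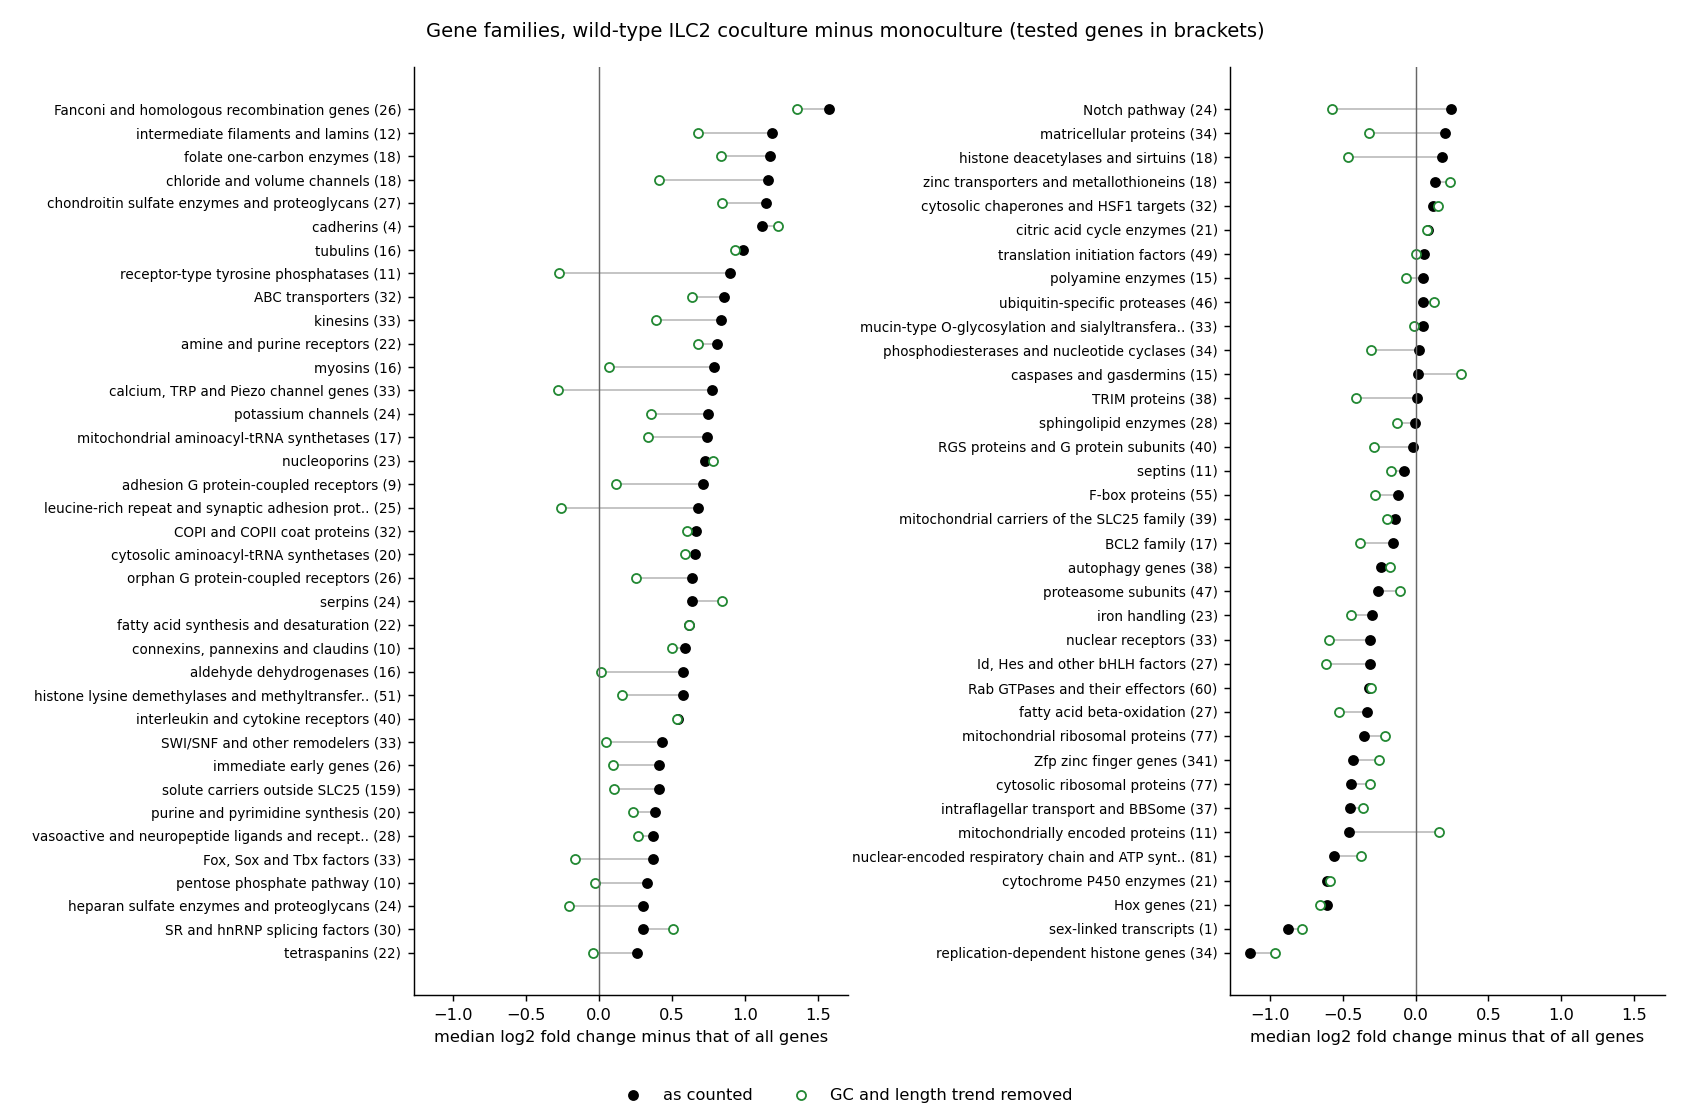
Median log2 fold change (coculture minus monoculture) of 73 of the 75 families after subtracting the median of all tested genes, as counted (filled) and after removal of the trend (open). Homologous recombination genes, one-carbon enzymes, tubulins, coat proteins and synthetases lie right of 0 both ways, histone, Hox, respiratory chain and ribosomal protein genes left of 0 both ways, while receptor-type phosphatases, Notch pathway genes and the calcium, TRP and Piezo channels cross the line.

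Synthetases and ribosomal proteins, both needed for translation, moved in opposite directions. Of the 20 cytosolic aminoacyl-tRNA synthetases, which charge tRNAs with amino acids, 16 rose and none fell as counted (trend removed: 13 higher, 2 lower, medians 0.67 and 0.49). They took 0.303% to 0.330% of the counts in the monocultures and 0.453% to 0.508% in the cocultures. Vars, for valine, had 6.50, 5.999, 10.7 and 7.73 CPM in the monocultures and 137, 112 and 64.5 CPM in the cocultures. Vars differed by 3.77 (SE 0.25, adjusted p = 9.04e-08). Wars, for tryptophan, went from 43.6 ± 10.2 to 161 ± 15.5 CPM. Among the 17 mitochondrial synthetases 10 rose and 2 fell, Fars2 and Rars2 (trend removed: 6 higher, 2 lower, medians 0.76 and 0.24). Mars2 rose from 5.93 ± 2.89 to 18.2 ± 2.98 CPM. Lars2, for leucine, had 195, 713, 1051 and 708 CPM in the monocultures and 1392, 1517 and 1956 CPM in the cocultures, with monoculture 1 the lowest.

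Most cytosolic ribosomal protein genes fell: 56 of 77 passed downward and 1 upward, with a median of -0.43 (-0.41 with the trend removed). Their transcripts made up 3.34% to 3.70% of the counts in the monocultures and 2.23% to 2.81% in the cocultures. The shares of the groups did not overlap. Rps27 had 564, 608, 611 and 606 CPM in the monocultures and 191, 250.1 and 266 CPM in the cocultures. Many ribosomal protein genes have near-identical pseudogenes, and how reads were shared between the copies is not given in the sources used here. The 1567 processed pseudogenes tested had a median of -0.25 as counted and -0.01 with the trend removed. Of the 77 mitochondrial ribosomal proteins 44 were lower and 5 higher (Mrps26, Mrpl12, Mrps5, Mrps2 and Mrpl40) (trend removed: 4 higher, 47 lower, medians -0.34 and -0.31), and Mrpl24 and Mrpl1 had the largest falls, at -0.94 and -0.92. Initiation factors were divided, 16 higher and 12 lower of 49 (trend removed: 14 higher, 15 lower, medians 0.08 and -0.10). Only 7 of them were higher and 8 lower both ways. Eif4g1, the scaffold of the cap-binding complex, rose from 36.1 ± 9.27 to 224 ± 36.2 CPM, and Eif3b had 41.7, 29.8, 54.5 and 41.1 CPM in the monocultures and 276, 69.6 and 202 CPM in the cocultures, with coculture 3 well below the other cocultures.

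**Figure D3:**
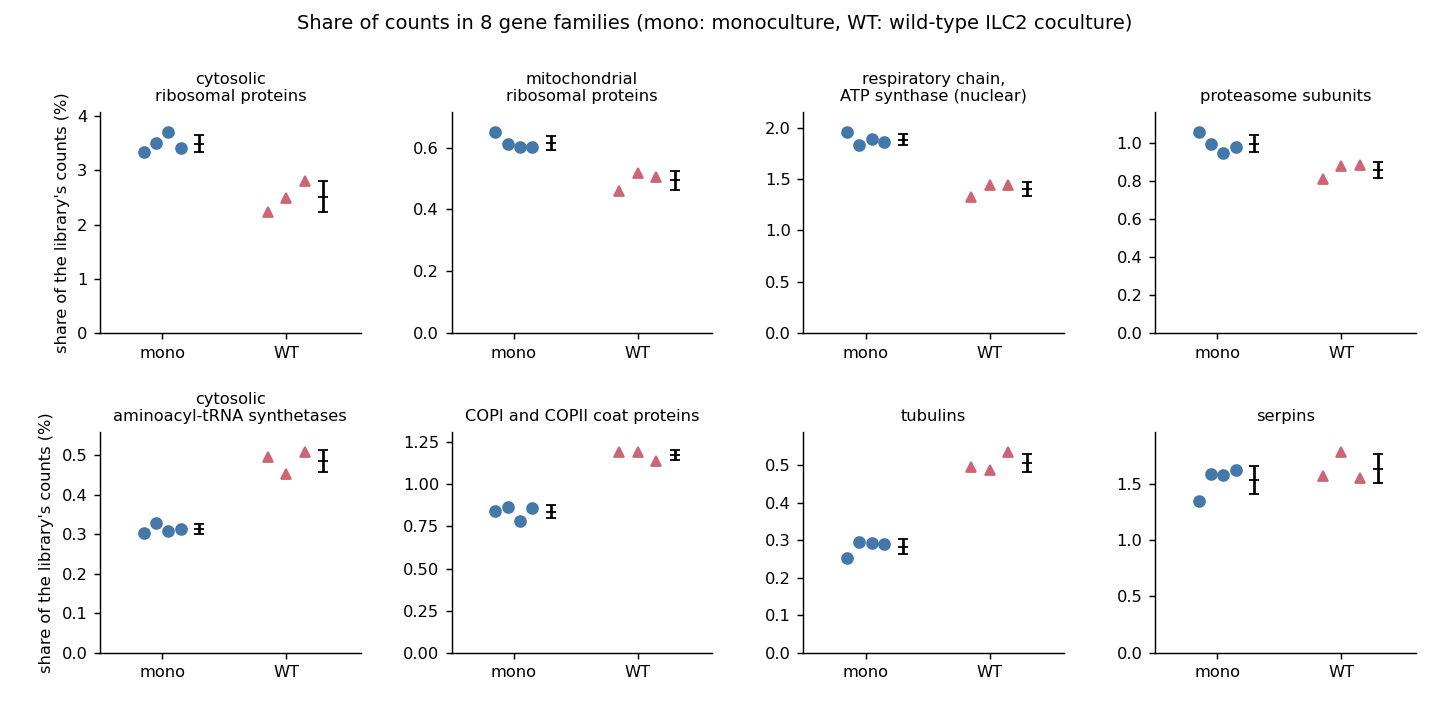
Share of each library's counts that fell to 8 families, with the 4 monocultures as circles, the 3 cocultures as triangles and the mean with its SD beside each group. Ribosomal protein, respiratory chain and proteasome shares are lower and synthetase, coat protein and tubulin shares higher in every coculture than in every monoculture, while the serpin shares overlap.

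Promoters of the synthetases that rose were examined because several synthetase genes are known to carry the amino acid response element read by ATF4. RefSeq promoters (GRCm38.p6, 250 bases before to 50 after the start) were found for 12 of the 20 cytosolic synthetases. The motif TGATGNAA, searched on both strands, was present in 5 of the 12 (41.7%), against 304 of 10637 promoters of tested genes (2.86%). This motif was chosen after the values had been seen. The 5 genes had a median difference of 1.31 and the 7 without it 0.35. Windows of 100 bases, from 80 before to 20 after the start and on the gene's strand, show the motif in capitals, as TGATGNAA or as its complement.
Aars: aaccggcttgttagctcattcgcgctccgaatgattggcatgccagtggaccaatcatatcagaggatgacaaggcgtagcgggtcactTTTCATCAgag
Gars: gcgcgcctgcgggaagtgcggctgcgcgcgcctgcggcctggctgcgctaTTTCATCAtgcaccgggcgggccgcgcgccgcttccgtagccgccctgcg
Iars: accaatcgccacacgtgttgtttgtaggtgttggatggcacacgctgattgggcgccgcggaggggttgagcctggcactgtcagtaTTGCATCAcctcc
Tars: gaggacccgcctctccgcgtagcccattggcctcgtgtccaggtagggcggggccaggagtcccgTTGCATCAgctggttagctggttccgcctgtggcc
Yars: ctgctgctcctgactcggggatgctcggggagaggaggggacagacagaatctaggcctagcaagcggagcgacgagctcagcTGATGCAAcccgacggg
The windows lie in GRCm38.p6 at Aars chr8:111033762-111033861 on the plus strand, Gars chr6:55037921-55038020 on the plus strand, Iars chr13:49682050-49682149 on the plus strand, Tars chr15:11399639-11399738 on the minus strand and Yars chr4:129189823-129189922 on the plus strand, and each spans the annotated start of the gene's first exon. In Aars, for alanine, expression was 121 ± 21.4 CPM in monoculture and 400.0 ± 38.4 CPM in coculture, and in Gars, for glycine, 165 ± 30.5 and 431 ± 30.0 CPM. Iars, Tars and Yars, for isoleucine, threonine and tyrosine, differed by 1.27, 1.31 and 0.70. None of 13 folate enzyme promoters held the motif in these windows.

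Ribosomal protein transcripts often begin with a C followed by pyrimidines, the terminal oligopyrimidine tract through which their translation is controlled. A C at the annotated start followed by at least 4 pyrimidines was found in 13 of 57 ribosomal protein promoters (22.8%) and in 330 of 10637 promoters of all tested genes (3.10%). This pattern, too, was chosen after the values had been seen. The 13 genes had a median difference of -0.30 and the 44 others -0.44, so the genes without an annotated tract fell as well. In 30 bases centred on the start, 15 on each side, the tract is in capitals.
Rps27: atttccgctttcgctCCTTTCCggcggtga
Rpl35: cggccccgccctttcCTCTTTCTCTCgaac
Rps15a: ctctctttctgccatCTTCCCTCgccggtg
Rpl15: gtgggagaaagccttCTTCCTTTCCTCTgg
These lie in GRCm38.p6 at Rps27 chr3:90213634-90213663 on the minus strand, Rpl35 chr2:39005117-39005146 on the minus strand, Rps15a chr7:118116133-118116162 on the minus strand and Rpl15 chr14:18270972-18271001 on the minus strand. Rpl35, Rps15a and Rpl15 fell by 0.76, 0.58 and 0.58 on the log2 scale. Of the Rpl35 exon bases, 66.2% are shared with another gene.

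Most vesicle coat genes of the secretory pathway rose. Of 32 COPI and COPII genes 23 were higher and 1, Sar1b, lower (trend removed: 25 higher, 3 lower, medians 0.68 and 0.50). They took 0.780% to 0.865% of the counts in the monocultures and 1.14% to 1.19% in the cocultures. Sec16a and Sec16b organise the sites where COPII vesicles bud, and Sec16b had 3.80, 5.33, 5.44 and 4.08 CPM in the monocultures and 33.7, 28.2 and 24.4 CPM in the cocultures. Sec16b differed by 2.63 (SE 0.19, adjusted p = 1.76e-07). Sec16a went from 7.83 ± 1.48 to 32.0 ± 5.94 CPM. Of 47 proteasome subunits, 23 fell and 4 rose (Psmd3, Psme3, Psmd2 and Psmc1) (trend removed: 5 higher, 21 lower, medians -0.24 and -0.21), with Psmd3 at 27.9 ± 11.2 CPM in monoculture and 111 ± 8.09 CPM in coculture. Chaperones of the cytosol were mixed: of 32, 14 rose and 10 fell (trend removed: 14 higher, 8 lower, medians 0.14 and 0.05). Cryab, a small heat shock protein, had 495, 351, 381 and 394 CPM in the monocultures and 47.2, 51.1 and 45.1 CPM in the cocultures. Cryab differed by -3.08 (SE 0.14, adjusted p = 6.66e-09). Dnajb4, an HSP70 cochaperone, fell from 108 ± 7.33 to 24.8 ± 1.89 CPM.

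RNA transport and splicing genes rose more often than they fell. Nucleoporins, which form the pores of the nuclear envelope, were higher in 15 and lower in 2 (Nup98 and Nup35) of 23 genes, with medians of 0.74 and 0.68. Nup188 had 5.997, 2.81, 7.93 and 5.34 CPM in the monocultures and 73.8, 53.4 and 36.8 CPM in the cocultures, and Nup62 went from 17.8 ± 6.03 to 85.0 ± 5.46 CPM. SR and hnRNP proteins, which bind pre-mRNA and guide splicing, had a median of 0.31 that grew to 0.41 with the trend removed, their exons having a median GC content of 41.6% against 49.3% over all genes. In that family 15 of 30 rose and 4 fell (Hnrnpc, Srsf10, Hnrnpa0 and Hnrnpk). Hnrnpl rose from 17.5 ± 2.30 to 47.5 ± 11.3 CPM, and Srsf4 from 8.08 ± 4.11 to 27.5 ± 0.633 CPM, although 43.0% of the exon bases of Srsf4 are shared with another gene.

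Autophagy genes moved both ways. Of 38, 13 rose and 19 fell (trend removed: 8 higher, 19 lower, medians -0.22 and -0.27). Atg4d, a protease that processes ATG8 proteins, rose from 7.41 ± 1.99 to 42.2 ± 5.13 CPM. Falls included the ATG8 proteins themselves, which coat the autophagosome membrane: Map1lc3b went from 1609 ± 213 to 561 ± 55.9 CPM, and Map1lc3a, Gabarap, Gabarapl1 and Gabarapl2 differed by -1.27, -1.09, -1.03 and -1.15. These 5 were picked out after their values had been seen. All 5 also passed downward with the trend removed. Ubiquitin-specific proteases rose in 17 and fell in 8 of 46 cases (trend removed: 12 higher, 13 lower, medians 0.06 and 0.02), and F-box proteins in 18 and 21 of 55 (trend removed: 12 higher, 27 lower, medians -0.10 and -0.38). Fbxo5, an inhibitor of the anaphase-promoting complex, rose from 5.47 ± 1.70 to 23.4 ± 3.16 CPM. Among 38 TRIM proteins, E3 ligases with roles in antiviral defence, 17 rose and 12 fell (trend removed: 7 higher, 18 lower, medians 0.02 and -0.51), with Trim47 at 4.01 and Trim12c at -3.02.

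Nuclear genes of the mitochondrial respiratory chain and ATP synthase fell in most cases. Of 81 tested, 63 were lower and 5 higher (Cox4i2, Atp5b, Atp5d, Cyc1 and Atp5a1). The median was -0.54, and -0.48 with the trend removed. These genes took 1.83% to 1.96% of the counts in the monocultures and 1.32% to 1.45% in the cocultures. Ndufa7, a complex I subunit, had 403, 340.1, 348 and 351 CPM in the monocultures and 135, 180.3 and 161 CPM in the cocultures. Ndufa7 differed by -1.18 (SE 0.11, adjusted p = 1.58e-06). Cox6a2, a subunit of cytochrome oxidase known from muscle, went from 11.5 ± 0.819 to 4.37 ± 1.63 CPM. The exons of the family are short, with a median of 1587 bases against 3643 over all genes. The NRF1 motif GCGCNNGCGC, read the same on both strands and also chosen after the values had been seen, was present in 18 of the 64 promoters found (28.1%), against 14.4% of all. Genes with it had a median of -0.52 and those without it -0.61.

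Transcripts of the mitochondrial genome did not follow with certainty. Of 11 tested, 5 fell as counted (mt-Nd5, mt-Nd6, mt-Nd3, mt-Nd2 and mt-Co1) with a median of -0.44, but none of these passed with the trend removed, where the median was 0.06 and 1 gene, mt-Nd4l, passed upward. mt-Nd5 had 165, 133, 229 and 139.9 CPM in the monocultures and 47.9, 94.4 and 112 CPM in the cocultures, with coculture 1 below the other cocultures. For the enzymes of fatty acid β-oxidation, 14 of 27 were lower and 3 higher as counted (Acox3, Crat and Acads), and 18 lower and none higher after correction, with medians of -0.32 and -0.63. Slc25a20, which carries acylcarnitines into mitochondria, had 139.9, 139.8, 97.4 and 120.1 CPM in the monocultures and 51.8, 56.3 and 53.4 CPM in the cocultures. Slc25a20 differed by -1.21 (SE 0.12, adjusted p = 3.34e-06).

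Fatty acid synthesis had 13 of 22 genes higher and 5 lower (Fads6, Hacd3, Elovl4, Hacd1 and Elovl5), and medians of 0.63 and 0.52. Srebf1, the transcription factor that drives lipogenic genes, had 4.48, 5.48, 12.4 and 3.30 CPM in the monocultures and 96.7, 74.6 and 49.9 CPM in the cocultures. Srebf1 differed by 3.55 (SE 0.34, adjusted p = 1.85e-06). Scd2, a stearoyl-CoA desaturase, went from 70.9 ± 12.7 to 559 ± 102 CPM. Folate one-carbon enzymes, which supply carbon for nucleotides, were among the highest medians, 1.19 as counted and 0.74 with the trend removed. Of 18 tested, 14 rose and 2 fell, Mthfs and Ggh (trend removed: 10 higher, 3 lower). Shmt2, the mitochondrial serine hydroxymethyltransferase, had 27.4, 39.7, 58.6 and 46.1 CPM in the monocultures and 300.0, 278 and 274 CPM in the cocultures. Shmt2 differed by 2.73 (SE 0.19, adjusted p = 1.29e-07). Aldh1l2, a mitochondrial 10-formyltetrahydrofolate dehydrogenase, had 21.4, 25.6, 24.9 and 27.8 CPM in the monocultures and 142, 137 and 145 CPM in the cocultures. Aldh1l2 differed by 2.50 (SE 0.10, adjusted p = 3.08e-09).

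Purine and pyrimidine synthesis genes rose in 11 and fell in 4 (Adssl1, Ctps2, Uckl1 and Gmps) of 20 cases (trend removed: 9 higher, 5 lower, medians 0.40 and 0.13). Impdh1, which commits purines to guanine nucleotides, had 0.591, 2.89, 3.23 and 2.39 CPM in the monocultures and 80.5, 68.6 and 49.6 CPM in the cocultures, and Cad, which starts pyrimidine synthesis, went from 1.26 ± 1.18 to 20.97 ± 7.09 CPM. The citric acid cycle split evenly, 8 higher and 8 lower of 21 (trend removed: 7 higher, 10 lower, medians 0.10 and -0.02), with Pcx, pyruvate carboxylase, at 3.06 and Dlat, a pyruvate dehydrogenase subunit, at 1.73. Pentose phosphate enzymes had 6 of 10 higher and 2 lower, Prps2 and Rpe (trend removed: 2 higher, 2 lower, medians 0.34 and -0.13). H6pd, which makes NADPH in the endoplasmic reticulum, rose from 38.6 ± 9.26 to 190.2 ± 64.2 CPM, and Prps2 fell from 45.5 ± 11.4 to 20.7 ± 2.68 CPM. Of 15 polyamine genes 3 rose (Srm, Azin2 and Dohh) and 6 fell (trend removed: 3 higher, 6 lower, medians 0.07 and -0.16). Only 1 of them was higher both ways, Srm, and 5 were lower both ways. Azin2 did not pass with the trend removed, at 0.42. Srm, spermidine synthase, went from 161 ± 22.8 to 459 ± 23.1 CPM. Sphingolipid enzymes, to which Smpd3 belongs, rose in 7 and fell in 10 of 28 cases (trend removed: 3 higher, 11 lower, medians 0.01 and -0.22). Smpd1, the acid sphingomyelinase of the lysosome, went from 31.1 ± 8.21 to 91.8 ± 10.5 CPM.

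Iron genes moved in 2 directions: Tfrc, the transferrin receptor through which iron enters, had 6.08, 10.2, 6.36 and 5.84 CPM in the monocultures and 55.0, 60.9 and 64.1 CPM in the cocultures. Tfrc differed by 3.07 (SE 0.18, adjusted p = 4.52e-08). Ferroportin, the exit route, fell as given above, and so did both ferritin chains, Fth1 by 0.49, and the haem oxygenase Hmox1 by 1.06. In total 6 of 23 iron genes rose and 11 fell (trend removed: 4 higher, 11 lower, medians -0.28 and -0.54). Among zinc transporters and metallothioneins, 9 of 18 rose and 5 fell, Mt1, Mt2, Slc30a1, Slc30a6 and Slc39a1 (trend removed: 9 higher, 4 lower, medians 0.15 and 0.14). Slc39a13, a zinc importer into the cytosol, rose from 26.0 ± 9.54 to 130.5 ± 11.1 CPM, whereas Mt1 and Mt2, the metallothioneins, and Slc30a1, the zinc exporter, fell by 0.57, 0.59 and 0.89. Slc39a7 also rose, but 80.7% of its exon bases are shared with another gene. Of 21 cytochrome P450 genes, 12 fell and 4 rose (Cyp11a1, Cyp26b1, Cyp1b1 and Cyp20a1) (trend removed: 4 higher, 13 lower, medians -0.59 and -0.69). Cyp26b1, which breaks down retinoic acid, had 4.48, 1.33, 6.27 and 2.53 CPM in the monocultures and 41.4, 29.7 and 17.4 CPM in the cocultures, while Cyp2j9 fell from 24.2 ± 4.98 to 4.68 ± 0.925 CPM. Aldehyde dehydrogenases rose in 7 and fell in 4 (Aldh6a1, Aldh3b1, Aldh1a7 and Aldh1a1) of 16 cases (trend removed: 4 higher, 6 lower, medians 0.59 and -0.08). Aldh1a3, which makes retinoic acid, had 5.41, 6.15, 7.65 and 12.9 CPM in the monocultures and 536, 476 and 540.0 CPM in the cocultures. Aldh1a3 differed by 5.999 (SE 0.26, adjusted p = 4.26e-09).

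Membrane transporters moved both ways. Mitochondrial carriers of the SLC25 family rose in 12 and fell in 14 of 39 cases (trend removed: 9 higher, 16 lower, medians -0.13 and -0.29), with Slc25a22, a glutamate carrier, going from 2.96 ± 1.90 to 20.2 ± 2.92 CPM. Of 159 solute carriers outside the SLC25 family 79 rose and 37 fell (trend removed: 60 higher, 49 lower), but their median of 0.42 went to 0.00 with the trend removed. Slc16a3, the lactate exporter MCT4, had 2.79, 7.26, 16.0 and 4.85 CPM in the monocultures and 429, 546 and 304 CPM in the cocultures. Slc16a3 differed by 5.81 (SE 0.41, adjusted p = 1.76e-07). ABC transporters kept a median above all genes both ways (0.87 and 0.54). Of 32 tested, 21 were higher and 4 lower, Abca8a, Abcg1, Abcc9 and Abcd3 (trend removed: 16 higher, 5 lower). Abcc3, which exports organic anions, went from 5.75 ± 2.52 to 28.5 ± 5.33 CPM, and Abca7 reached 15.8 ± 7.87 CPM from 1.53 ± 0.909 CPM. Chloride and volume channels rose in 12 and fell in 2, Clcn4 and Lrrc8a, of 18 cases (trend removed: 8 higher, 2 lower, medians 1.17 and 0.31). Ano6, a scramblase and ion channel, went from 38.5 ± 16.9 to 264 ± 48.7 CPM. Within the LRRC8 volume-regulated anion channel, the accessory subunits Lrrc8b, Lrrc8c, Lrrc8d and Lrrc8e rose by 2.08, 2.02, 1.51 and 2.28, and the obligatory subunit Lrrc8a fell from 250.4 ± 19.7 to 124 ± 1.82 CPM, though 68.3% of its exon bases are shared with another gene. The contrast within LRRC8 was picked out after the values had been seen.

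Of 24 potassium channel genes 6 rose and 7 fell (trend removed: 7 higher, 8 lower, medians 0.76 and 0.26). Kcne4, a regulatory subunit of potassium channels, had 284, 285, 253 and 331 CPM in the monocultures and 24.1, 31.0 and 21.7 CPM in the cocultures. Kcne4 differed by -3.49 (SE 0.16, adjusted p = 5.00e-09). Kcnd1, a pore-forming subunit, rose from 6.47 ± 2.27 to 29.3 ± 12.1 CPM. Of 33 calcium, TRP and Piezo channel genes 16 rose and 7 fell (trend removed: 10 higher, 12 lower), and the median turned from 0.79 to -0.38 with the trend removed. Itpr1, the IP3 receptor that releases calcium from the endoplasmic reticulum, held its rise both ways: it had 7.09, 4.44, 6.55 and 3.30 CPM in the monocultures and 58.9, 63.6 and 60.3 CPM in the cocultures. Itpr1 differed by 3.52 (SE 0.23, adjusted p = 7.44e-08). Cacnb4, a calcium channel subunit, fell from 10.3 ± 3.48 to 1.29 ± 0.394 CPM.

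Among purine and amine receptors 14 of 22 were higher and 5 lower, Htr2b, Adrb3, P2rx6, P2ry6 and P2ry14 (trend removed: 10 higher, 5 lower, medians 0.82 and 0.58). P2ry1 and P2ry2, which sense ADP and UTP or ATP, went from 2.59 ± 0.938 to 24.96 ± 2.44 CPM and from 1.43 ± 0.717 to 11.9 ± 1.93 CPM. Orphan receptors rose in 15 and fell in 2 (Gpr17 and Gpr19) of 26 cases (trend removed: 9 higher, 6 lower, medians 0.65 and 0.15). Gpr35 had 0.338, 0.518, 0.277 and 0.211 CPM in the monocultures and 10.1, 17.2 and 13.3 CPM in the cocultures, and Gpr176 rose from 37.6 ± 6.64 to 114 ± 10.2 CPM. Of 9 adhesion receptors 5 rose, Adgra2, Adgrd1, Adgre5, Adgrg2 and Adgrl1, and 2 fell, Adgra3 and Adgrg1 (trend removed: 3 higher, 4 lower, medians 0.72 and 0.02), with Adgra2 at 14.2 ± 5.64 and 95.7 ± 17.4 CPM and Adgrd1 at 58.1 ± 3.77 and 188 ± 14.4 CPM. Vasoactive and neuropeptide genes were higher in 10 and lower in 11 of 28 cases (trend removed: 10 higher, 12 lower, medians 0.39 and 0.17). Ednrb, the endothelin B receptor, fell from 21.7 ± 7.21 to 5.37 ± 0.822 CPM, and Agt, angiotensinogen, from 11.2 ± 2.98 to 3.05 ± 1.49 CPM.

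Interleukin and cytokine receptors had 23 of 40 genes higher and 5 lower (Prlr, Il1rn, Il15ra, Csf2ra and Ghr) (trend removed: 21 higher, 11 lower), and medians of 0.56 and 0.43. The list also holds Il1rn, which encodes the IL-1 receptor antagonist and not a receptor. Csf2rb2, a copy of the common beta chain of the GM-CSF, IL-3 and IL-5 receptors in mice, had 0, 0.148, 0.553 and 0 CPM in the monocultures and 45.0, 40.0 and 22.96 CPM in the cocultures. Csf2rb2 differed by 7.75 (SE 0.53, adjusted p = 1.23e-07). It had 8 reads in all over the monocultures. Among phosphodiesterases and cyclases 13 of 34 rose and 12 fell (trend removed: 6 higher, 15 lower, medians 0.04 and -0.41). Pde1a, a calcium-activated phosphodiesterase, had 204, 181, 126 and 177 CPM in the monocultures and 45.6, 47.3 and 46.9 CPM in the cocultures, and Prkg1, the cGMP-dependent kinase, went from 19.9 ± 2.28 to 5.99 ± 1.83 CPM. Of 40 RGS proteins and G protein subunits 13 rose and 17 fell (trend removed: 8 higher, 21 lower, medians -0.01 and -0.38). Rgs2, which shortens Gq signals, fell from 13.8 ± 1.31 to 1.71 ± 0.702 CPM, and Gng8, a G protein gamma subunit, from 43.8 ± 2.92 to 4.004 ± 0.910 CPM.

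Several families of cell surface proteins changed sign with the trend removed. Receptor-type tyrosine phosphatases had 6 of 11 genes higher and 1, Ptprd, lower (trend removed: 2 higher, 4 lower), and their median turned from 0.91 to -0.37. Ptprj passed both ways, at 1.93 and 1.37, and Ptprs only as counted. Notch pathway genes rose in 8 and fell in 6 of 24 cases (trend removed: 8 higher, 12 lower, medians 0.26 and -0.67). Aph1a, a subunit of gamma-secretase, rose from 18.6 ± 6.09 to 95.7 ± 17.5 CPM, against the fall of Hey1. The tetraspanin Cd53, known from leukocytes, had 3.38, 2.15, 3.96 and 3.02 CPM in the monocultures and 92.4, 107 and 112 CPM in the cocultures. Cd53 differed by 5.06 (SE 0.19, adjusted p = 1.81e-09). Tspan18 rose from 7.32 ± 1.70 to 47.7 ± 5.54 CPM, and of 22 tetraspanins 9 rose and 8 fell (trend removed: 8 higher, 8 lower, medians 0.27 and -0.14). Leucine-rich repeat and synaptic adhesion genes rose in 11 and fell in 6 of 25 cases (trend removed: 7 higher, 7 lower). Their median turned from 0.69 to -0.36, but Elfn1 and Rtn4rl2, a receptor of the Nogo family, passed both ways with trend-removed differences of 3.75 and 4.05. Of 4 cadherins tested 2 rose, Cdh2 and Cdh3, and 1 fell (trend removed: 2 higher, 1 lower, medians 1.13 and 1.12). Cdh2, N-cadherin, rose from 9.42 ± 3.27 to 37.8 ± 4.28 CPM, and Cdh11, the cadherin of fibroblasts, fell from 252 ± 23.6 to 160.1 ± 8.89 CPM. In all 5 of 10 connexins, pannexins and claudins rose and none fell, Gja1, Gjb5, Panx1, Cldn15 and Cldn23 (trend removed: 5 higher, 0 lower, medians 0.61 and 0.40). Gjb5, a connexin, and Panx1, a channel that releases ATP, reached 19.6 ± 1.22 CPM and 63.3 ± 4.55 CPM.

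Of 16 tubulins 13 were higher and 1, Tubd1, lower, with medians of 1.002 and 0.83, and they took 0.254% to 0.296% of the counts in the monocultures and 0.487% to 0.534% in the cocultures. Tuba8 had 0.507, 0.370, 1.11 and 0.773 CPM in the monocultures and 19.3, 21.5 and 20.6 CPM in the cocultures. Tuba8 differed by 4.90 (SE 0.25, adjusted p = 1.46e-08). Tubb4a went from 2.81 ± 1.12 to 12.99 ± 0.634 CPM. Kinesins, the motors that walk on microtubules, were higher in 19 and lower in 3 (Kif3a, Kif2a and Kif5b) of 33 cases (trend removed: 16 higher, 12 lower, medians 0.85 and 0.29). Kif23 and Kif2c, both motors of cell division, went from 1.61 ± 0.284 to 15.6 ± 2.32 and from 6.21 ± 1.20 to 48.4 ± 6.61 CPM. Among genes of the primary cilium, 21 of 37 intraflagellar transport and BBSome genes were lower and 4 higher (Ift140, Bbs1, Ift172 and Tulp3), with medians of -0.43 and -0.46. Dync2li1, a subunit of the dynein that returns cargo from the ciliary tip, had 44.1, 31.1, 27.0 and 39.3 CPM in the monocultures and 5.47, 5.02 and 6.90 CPM in the cocultures. Dync2li1 differed by -2.61 (SE 0.20, adjusted p = 2.79e-07).

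Of 16 myosins 10 rose and 1, Myh11, fell (trend removed: 7 higher, 6 lower), with a median of 0.80 as counted and -0.04 with the trend removed. Myo1c had 29.6, 32.7, 55.8 and 33.7 CPM in the monocultures and 331, 251 and 216 CPM in the cocultures, with monoculture 3 the highest of the monocultures. Arhgef1, an exchange factor for small GTPases, rose from 3.89 ± 1.34 to 72.4 ± 11.2 CPM. Rnd2 rose from 7.33 ± 3.03 to 61.8 ± 12.4 CPM and Rhobtb1 fell from 26.0 ± 2.29 to 4.88 ± 0.650 CPM. Rab GTPases and their effectors, which direct vesicles, fell in 24 and rose in 16 of 60 cases (trend removed: 15 higher, 28 lower, medians -0.30 and -0.41). Rab15 rose from 2.17 ± 0.821 to 30.9 ± 4.12 CPM. Of 12 intermediate filament and lamin genes 8 rose and 1, Krt7, fell (trend removed: 6 higher, 2 lower, medians 1.20 and 0.58). Both B-type lamins of the nuclear envelope rose, Lmnb1 from 6.41 ± 2.705 to 48.5 ± 5.79 CPM and Lmnb2 from 0.941 ± 0.499 to 15.0 ± 2.64 CPM. Of the septins, cytoskeletal GTPases, Sept9, Sept5 and Sept4 rose by 2.15, 2.12 and 1.23, while 5 fell (Sept2, Sept1, Sept11, Sept7 and Sept10) (trend removed: 3 higher, 5 lower, medians -0.06 and -0.27).

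In the matrix, of 27 chondroitin sulfate genes 18 were higher and 6 lower (trend removed: 11 higher, 6 lower), with medians of 1.16 and 0.74. Xylt2, which starts the sugar chain, went from 1.57 ± 0.676 to 18.7 ± 4.04 CPM, and Chpf2, which extends it, had 7.60, 5.63, 11.8 and 4.57 CPM in the monocultures and 135, 94.5 and 37.8 CPM in the cocultures, although 44.1% of its exon bases are shared with another gene. Heparan sulfate genes rose in 11 and fell in 8 of 24 cases (trend removed: 6 higher, 9 lower, medians 0.31 and -0.30). Hs3st1, a sulfotransferase, had 31.5, 39.6, 29.0 and 39.6 CPM in the monocultures and 200.4, 172 and 177 CPM in the cocultures. Hs3st1 differed by 2.39 (SE 0.12, adjusted p = 1.46e-08). Gpc3, the proteoglycan glypican 3, fell from 161 ± 25.1 to 45.8 ± 13.5 CPM. Of 33 sialyl- and O-glycosyltransferases 12 rose and 9 fell (trend removed: 8 higher, 14 lower, medians 0.06 and -0.11). St3gal4 and Galnt16 rose, by 3.01 and 4.57.

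Tnc, tenascin C, a matricellular protein of wounds, had 45.5, 44.1, 55.8 and 30.7 CPM in the monocultures and 791, 681 and 668 CPM in the cocultures. Tnc differed by 4.02 (SE 0.17, adjusted p = 3.03e-09). Its family moved both ways, 12 higher and 12 lower of 34 (trend removed: 9 higher, 17 lower), and its median turned from 0.21 to -0.42. Serpins, inhibitors of proteases, were higher in 12 and lower in 5 (Serpinb8, Serpinf1, Serping1, Serpine2 and Serpinb6a) of 24 cases (trend removed: 11 higher, 6 lower, medians 0.65 and 0.74). Serpina3g had 10.9, 16.5, 7.19 and 10.9 CPM in the monocultures and 255, 298 and 264 CPM in the cocultures. Serpina3g differed by 4.57 (SE 0.19, adjusted p = 4.15e-09). The Serpina3 genes of the mouse are near-identical copies in 1 cluster, so reads may have been divided among them. As a share of counts the serpins overlapped between the groups, with 1.34% to 1.62% of the counts in the monocultures and 1.55% to 1.78% in the cocultures, and the most abundant of them, Serpinh1, is described above.

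Zinc finger genes of the Zfp series, many of them KRAB repressors, fell more often than they rose: 148 of 341 were lower and 62 higher, with medians of -0.41 and -0.35. They took 0.486% to 0.568% of the counts in the monocultures and 0.419% to 0.441% in the cocultures. Zfp385a and Zfp574 rose against the family, from 2.56 ± 1.18 to 26.2 ± 8.51 and from 3.03 ± 0.664 to 27.4 ± 6.95 CPM. Hox genes, which hold a cell's position along the body, fell in 10 and rose in 2 (Hoxb7 and Hoxb8) of 21 cases (trend removed: 1 higher, 12 lower, medians -0.59 and -0.75). Hoxc4 had 20.3, 19.2, 15.9 and 15.0 CPM in the monocultures and 9.96, 8.66 and 8.19 CPM in the cocultures, while Hoxb7 went from 14.1 ± 2.01 to 33.6 ± 4.48 CPM. Nuclear receptors had 10 higher and 12 lower of 33 (trend removed: 6 higher, 18 lower, medians -0.30 and -0.69). Esr1, oestrogen receptor alpha, fell from 16.2 ± 3.54 to 2.66 ± 0.843 CPM, and Rarg, a retinoic acid receptor, rose from 5.199 ± 3.88 to 39.2 ± 14.7 CPM.

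Among bHLH factors, Id1, Id2, Id3 and Id4, which block other bHLH factors and are targets of BMP signals, all fell, by 2.23, 1.53, 3.19 and 2.44 on the log2 scale (picked out after the values had been seen), whereas Tcf3, an E protein that Id proteins bind, had 4.31, 5.92, 9.77 and 3.37 CPM in the monocultures and 100.02, 80.5 and 66.1 CPM in the cocultures. Tcf3 differed by 3.83 (SE 0.26, adjusted p = 1.16e-07). In all 14 of 27 bHLH genes fell and 8 rose (trend removed: 6 higher, 17 lower, medians -0.30 and -0.72). Fox, Sox and Tbx factors rose in 11 and fell in 9 of 33 cases (trend removed: 8 higher, 12 lower, medians 0.38 and -0.26). Sox4 had 317, 309.6, 295 and 327 CPM in the monocultures and 33.4, 32.4 and 45.3 CPM in the cocultures, with 54.6% of its exon bases shared with another gene, and Tbx3 rose from 3.56 ± 1.62 to 19.5 ± 5.93 CPM. Jun, a subunit of AP-1, had 19.9, 24.4, 40.0 and 36.1 CPM in the monocultures and 337, 427 and 376 CPM in the cocultures, and Junb went from 46.8 ± 26.0 to 533 ± 107 CPM. Immediate early genes rose in 13 and fell in 4 (Nr4a3, Btg2, Ier5 and Dusp1) of 26 cases (trend removed: 7 higher, 8 lower, medians 0.43 and -0.01).

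Chromatin enzymes had fewer higher and more lower calls with the trend removed, as did all genes. Over all genes the higher calls went from 32.8% to 26.3% and the lower calls from 29.7% to 32.9%. Histone lysine demethylases and methyltransferases had 24 of 51 higher and 6 lower (trend removed: 17 higher, 12 lower, medians 0.59 and 0.06). Kdm4b and Kdm5c, demethylases of H3K9 and H3K4, rose from 2.24 ± 1.28 to 34.0 ± 7.67 and from 8.14 ± 0.643 to 57.9 ± 27.1 CPM. SWI/SNF and other remodelers rose in 15 and fell in 6 of 33 cases (trend removed: 8 higher, 10 lower, medians 0.45 and -0.05). Of 18 histone deacetylases and sirtuins 6 rose and 5 fell, Hdac8, Sirt1, Sirt3, Sirt4 and Sirt7 (trend removed: 1 higher, 9 lower, medians 0.20 and -0.57), and Hdac7 passed upward as counted, at 1.13, and downward with the trend removed, at -0.51. Replication-dependent histone genes had 9 higher and 19 lower of 34 (trend removed: 9 higher, 20 lower, medians -1.12 and -1.06). Hist1h2bg had 75.8, 68.9, 62.7 and 70.2 CPM in the monocultures and 14.1, 16.2 and 17.0 CPM in the cocultures. Histone genes are near-identical copies whose main transcripts lack poly(A) tails, so their values are uncertain.

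Genes of the Fanconi anaemia pathway and homologous recombination, which repair broken and crosslinked DNA, had the highest median of all families, 1.59 as counted and 1.25 with the trend removed. Of 26 tested, 19 rose and none fell as counted (trend removed: 19 higher, 2 lower). Blm, a helicase that unwinds recombination intermediates, had 3.38, 3.41, 1.66 and 1.20 CPM in the monocultures and 11.3, 13.8 and 14.9 CPM in the cocultures. Blm differed by 2.47 (SE 0.29, adjusted p = 1.20e-05). Exo1, a nuclease that resects DNA ends, went from 1.504 ± 1.14 to 11.8 ± 1.59 CPM. In the BCL2 family 6 of 17 rose and 8 fell (trend removed: 5 higher, 10 lower, medians -0.14 and -0.48). Pmaip1, the death-promoting protein NOXA, had 26.6, 47.5, 36.6 and 48.2 CPM in the monocultures and 4.26, 4.97 and 5.55 CPM in the cocultures, and Bak1, a pore-forming member, rose from 13.6 ± 5.82 to 87.7 ± 19.7 CPM. Of 15 caspases and gasdermins 7 rose and 3 fell (trend removed: 3 higher, 4 lower, medians 0.03 and 0.21). Casp12, a caspase of the endoplasmic reticulum, fell from 164 ± 26.5 to 61.7 ± 1.87 CPM.

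Fold changes moved with the GC content and length of the exons. From the 10% of genes lowest in GC to the 10% highest, the median difference went from -0.46 to 0.86, the share that rose from 13.1% to 52.3% and the share that fell from 49.4% to 13.9%. Across genes, Spearman's rho was 0.324 with GC content and 0.162 with length (16313 genes, which are not independent replicates and share libraries). When genes were cut into 4 equal groups by each property, those highest in GC and longest had a median of 1.35, those lowest in GC and shortest -0.46, and those highest in GC but shortest -0.04. The trend held at every level of expression, with rho between 0.257 for genes over 100 CPM and 0.339 for genes of 10 to 100 CPM. After removal rho was 0.0254 with GC content.

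**Figure D4:**
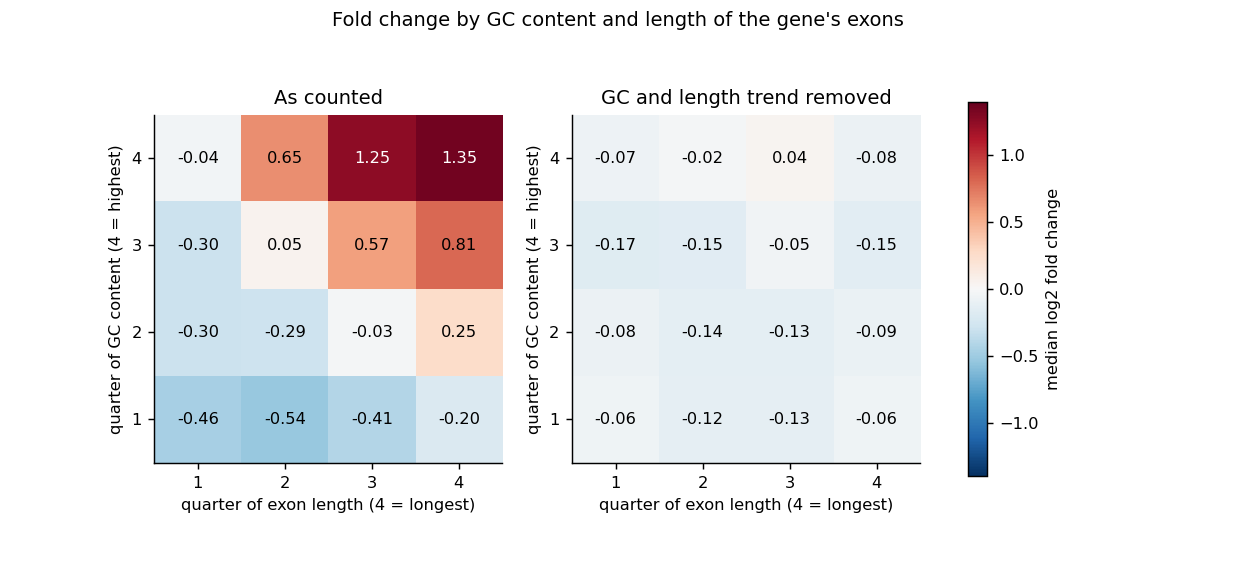
Median log2 fold change of genes in 4 equal groups of exon GC content (upward) and 4 of exon length (rightward), as counted (left) and with the trend removed (right). As counted it climbs from -0.54 in GC-poor genes of the second shortest group to 1.35 in the longest GC-rich genes, and after removal every cell lies between -0.17 and 0.04.

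The libraries separated by base composition as they did by group. Relative to the mean of the 10 libraries, log2 CPM had a rho with GC content of -0.39, -0.32, -0.13 and -0.34 in monocultures 1 to 4 and of 0.28, 0.26 and 0.19 in cocultures 1, 3 and 4. The 10% of genes richest in GC took 5.00, 5.46, 6.17 and 5.39% of the counts in the monocultures and 7.78, 7.47 and 6.68% in the cocultures. Monoculture 3 was nearest to the cocultures, and without it rho between fold change and GC content was 0.349. The IL13KO cocultures had rho values of 0.327 to 0.354. Labels give the same kit and input of 5 to 15 ng of RNA for all libraries. Whether the trend arose in the cells or in the making of the libraries was not tested, and the libraries of one group share it, so it and the group cannot be told apart from these counts.

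**Figure D5:**
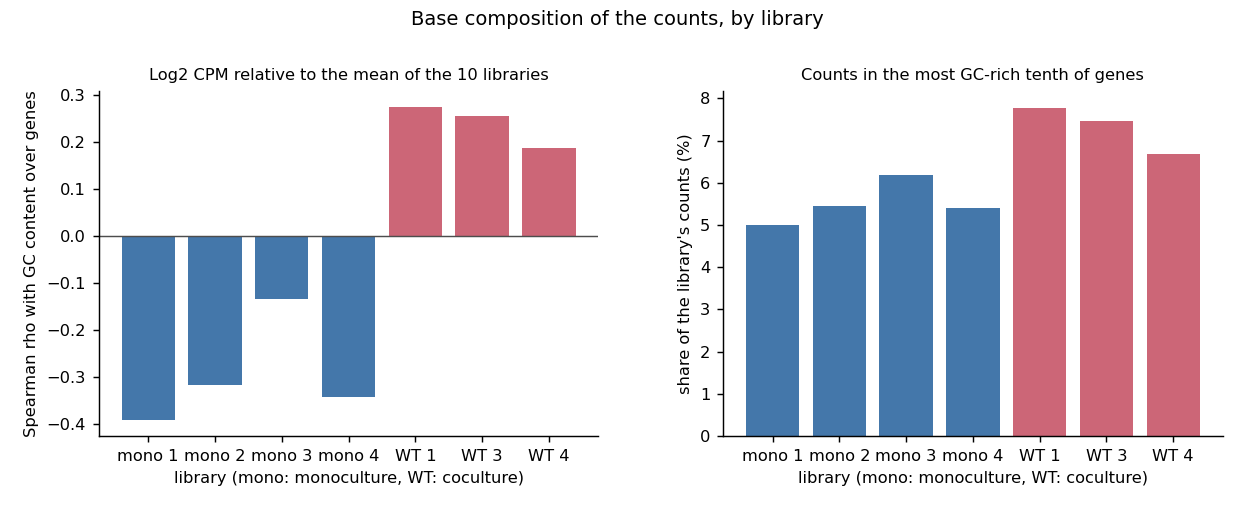
Left, Spearman's rho across genes between exon GC content and the log2 CPM of a library relative to the mean of the 10 libraries. Right, share of counts in the 10% of genes richest in GC, in which all 3 cocultures (6.68% to 7.78%) lie above all 4 monocultures (5.00% to 6.17%).

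Base composition of the promoter was a weaker marker. The GC content of 10637 RefSeq promoters had a rho of 0.121 with the fold change and 0.0389 once the trend of the exons was removed. The palindrome TTCNNNNGAA, a form of the site bound by STAT6, the factor activated by IL-4 and IL-13, was present in 1 of the 14 promoters found for the rises ranked 11 to 25 (7.14%) and in 6.63% of all promoters. Genes with it had a median difference of 0.09 and genes without it 0.06.

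Other cell types were checked through fixed marker lists. Of 10 fibroblast markers 7 rose and 2, Dcn and Lum, fell. The 10 markers summed to 7819 to 10729 CPM in the monocultures and 13074 to 17224 CPM in the cocultures. Most of the rise in the sum came from Col1a1, whose difference shrank to 1.12 with the trend removed. Lum had 910, 507, 464 and 657 CPM in the monocultures and 48.1, 49.0 and 50.0 CPM in the cocultures. Of 17 ILC2 markers, 14 were found, which summed to 228 to 260.2 CPM in the monocultures and 1610.0 to 1874 CPM in the cocultures, of which Il1rl1 and Lmo4 made up most, and Klrg1 and Il7r had 0 reads in each monoculture and at most 10 and 5 in a coculture. Leukocyte markers summed to 13.7 to 21.4 CPM in the monocultures and 110.0 to 142 CPM in the cocultures, nearly all of it Cd53 and Arhgdib, while Laptm5, Cd48 and Rac2 had 0 reads in the monocultures and at most 16 in a coculture. Macrophage markers summed to 68.1 to 74.7 CPM in the monocultures and 22.3 to 24.1 CPM in the cocultures, the fall being that of Lyz2, and the macrophage gene Adgre1 had at most 4 reads in any library. Mural and stellate markers had 6 of 8 tested genes lower and none higher, and summed to 1142 to 1363 CPM in the monocultures and 698 to 951 CPM in the cocultures. Acta2 made up most of these sums, at 1041 to 1269 CPM in the monocultures and 663 to 916 CPM in the cocultures. Des overlapped between the groups, at 9.21 to 28.6 CPM and 14.0 to 20.8 CPM. Epithelial markers stayed low, at 16.8 to 24.0 CPM in the monocultures and 7.0003 to 9.89 CPM in the cocultures, and endothelial markers at 0.0845 to 3.69 CPM in the monocultures and 1.93 to 2.36 CPM in the cocultures. Mesothelial markers summed to 25.03 to 150.3 CPM in the monocultures and 131 to 152 CPM in the cocultures, where Wt1 made up most in the cocultures and Upk1b and Upk3b in monoculture 3, and coculture 3 held 126 and 110 reads of these. Of the Schwann cell list Ncam1 rose from 54.5 ± 7.47 to 377 ± 32.0 CPM, while S100b had at most 16 reads in any library. The part of other cell types in the differences was not tested.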

How the data were processed

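Bulk RNA-seq counts of 10 libraries were used, 7 of them compared. Per the labels' protocols, RNA was extracted with the RNeasy plus micro kit, 5 to 15 ng entered the NEBNext Single Cell/Low Input kit, which does not mark strand, and paired reads of 50 nt were sequenced. The authors deposited raw counts per gene, whole numbers, and the submitters' processing notes name Trimmomatic 0.39, STAR 2.7.7a, Salmon 1.6.0, DESeq2 and GRCm38.p6. Which tool counted, and its strand setting, are not given in the sources used here. A second deposited table, of normalized signal, equals these counts divided by 1 factor per library, within 0.0153 counts, and only served as a check.

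The counts were fitted in edgeR 4.0.16 (R 4.3.3; filterByExpr, TMM, 1 coefficient per group, quasi-likelihood test), with Benjamini-Hochberg adjustment over 16344 of 22731 genes and a threshold of 0.05. The SE is the log2 fold change divided by the root of F. Exon GC content and length came from GENCODE M21 (22639 genes matched), and their trend was removed as a loess offset (span 0.4) per library. Alternatives were DESeq2 1.42.0, limma-voom 3.58.1, other scalings, filters, libraries and trends. On simulated data of 16344 genes the test recovered 58% of 100 genes changed 2-fold and 94% of 100 changed 4-fold, with 10 false calls. No other gene was changed there, and no trend with GC content or length was built in. These rates therefore do not carry over to the real data, in which 62.5% of genes passed.

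Named genes were ranks 11 to 25 by log2 fold change each way, the 10 largest changes in CPM each way, up to 2 genes per family, and 6 checks of labels and sort. All needed a call, groups without overlap and 10 CPM in 1 group, except the checks. Members of the LRRC8, Id, ATG8, ferritin, metallothionein and septin genes, and those with promoters shown, were added after their values were seen. A few genes and 2 of the 75 families are not reported here. The members and lists were chosen with earlier results of these data known.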

Additional observations from a re-analysis of the deposited data

Results flagged for a closer look

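In 192 groups of 4 monoculture values, 17 had 1 library whose gap to its nearest neighbour exceeded the 95% critical value of Dixon's test, and chance gives about 1 in 20. Monoculture 3 was that library 9 times, monoculture 1 was it 4 times, and monocultures 2 and 4 were it 2 times each.

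Monoculture 3 stood above the others for Col1a1 at 1682 CPM (others 817 to 951), Myo1c at 55.8 CPM (29.6 to 33.7), Casp9 at 12.2 CPM (5.41 to 6.08) and Lmnb1 at 10.4 CPM (4.52 to 5.49). It was also above for Rab11fip5 at 8.02 CPM (3.87 to 4.44), Xylt2 at 2.58 CPM (1.18 to 1.33), Tmem108 at 2.21 CPM (0 to 0.0703) and Ddx4 at 0.830 CPM (0 to 0.0845), and below for Sept4 at 31.3 CPM (36.4 to 37.5). For Col1a1, Myo1c, Lmnb1, Xylt2, Rab11fip5 and Casp9 it was the monoculture nearest to the cocultures.

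Monoculture 1 stood below the others for Serpinh1 at 5203 CPM (8134 to 8703) and Rps27 at 564 CPM (606 to 611), and above them for Ubb at 8683 CPM (6245 to 6641) and Dcn at 3551 CPM (2146 to 2259). Monoculture 2 was above for Slc40a1 at 26.4 CPM (19.5 to 20.7) and Tfrc at 10.2 CPM (5.84 to 6.36). Monoculture 4 was above for Aqp1 at 0.914 CPM (0 in the others) and Nt5e at 0.703 CPM (0 to 0.0922).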

How the results depend on the processing

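Over the 20 other settings, 175 of 191 named genes passed in every one. Apart from the checks, these genes had been chosen for a call and groups without overlap in the same counts. Their number is therefore no measure of how stable the genes are in general. Of all 16313 genes, 7780 (47.7%) were called in the same direction with and without the GC and length trend. In a test against a fold of 1.5 instead of any change, fewer genes passed, 5884 in all, 3603 higher and 2281 lower. Leaving out 1 library at a time gave 9070 to 10459 genes in all, 4907 to 5515 higher and 4163 to 4944 lower. The other settings kept these 3 counts within 1.5 times, from 9347 to 10547 in all. Spearman's rho with GC content was 0.3004 to 0.349 without 1 library and with length 0.147 to 0.179. By construction, rho with GC content shrank to 0.0400 (longest transcript), 0.0254 (union of exons) and -0.0127 (GC alone) once the trend was removed, and rho with length went to -0.0194, -0.0125, 0.279 (GC alone) and -0.0115 (length alone). The rho with promoter GC went from 0.121 to 0.0389. Families with a median above that of all genes numbered 51 as counted and 49 to 52 without 1 library. Their number depended more on the trend: 38 with the GC and length trend removed, 40 by longest transcript, 42 with length alone removed and 49 with GC alone. Serpinh1 reversed to -0.0554 (longest transcript) and -0.123 (GC alone), and Hdac7 to -0.324 and -0.51 (longest transcript and union of exons). The cause of these moves of single genes was not tested. With a replicate block by column number, 9422 genes passed, 5052 higher and 4370 lower. Libraries of the same number had correlations of -0.126, 0.0149 and 0.0280 between their deviations from the group means. These values lay within the range of the pairs of unlike number. Deviations from the means of so few libraries cannot show whether the numbers mark pairs, so no conclusion on pairing is drawn. Fold changes of genes close to silent in monoculture rest on few reads, 7 for Mybl2.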

Other observations

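The 877 antisense genes tested had a median log2 fold change of 0.27 as counted and 0.30 after the trend with GC content and length had been removed, of which 309 were higher and 192 lower. The 12726 protein-coding genes had medians of 0.07 and -0.14, with 4571 higher and 3885 lower. For 319 lincRNAs the medians were -0.24 and -0.11, with 71 higher and 89 lower. These classes were not tested against each other. The library kit does not mark strand, so reads of an antisense gene and of the gene opposite cannot be told apart.

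Xist, the noncoding RNA of the inactive X chromosome, fell by 0.86 on the log2 scale in the cocultures and by 0.88 with the trend removed. The groups overlapped for Xist, and without 1 library at a time its difference ran from -1.145 to -0.666. The number and sex of the mice behind each library are not given in the sources used here.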
